A study of Arabidopsis thaliana with 6 samples.

Results

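Young leaves of kyp mutant Arabidopsis were compared with those of wild type (Col-0) on 2 long-oligonucleotide arrays each, which are 4 of the 6 arrays of the series. The members are the arrays whose labels give the genotype kyp or wild type Col-0. The other 2 arrays carry cmt3 mutant leaves. All plants had grown on soil in long days for 4 weeks with no treatment, per the labels, and total RNA was hybridised in 1 colour (Cy3). The labels name no allele of kyp or cmt3, and they do not say whether replicate arrays came from different plants. Spread between replicates, and with it every p-value, may thus be technical only. The intensities of 30361 gene models had been normalized by RMA, and all values below are log2 intensities.

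KYP, also called SUVH4, places the H3K9 methylation mark on histones where the DNA carries methyl groups. The chromomethylase CMT3 binds that histone mark and methylates cytosines in the CHG context, and the methylated DNA in turn recruits KYP. In leaves the loop is known for keeping transposable elements silent. The elements named here are copia and gypsy retrotransposons, which carry long terminal repeats, LINE retrotransposons, which lack them, and the DNA transposons CACTA, Mutator and hAT.

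The KYP transcript itself was measured by 3 probes (chromosome 5, 4501449 to 4506190 in the coordinates of the files). Its intensity was 10.04 and 9.91 in kyp, against 10.24 and 10.19 in wild type. Both kyp arrays lay below both wild type arrays, by 0.24 ± 0.10 (standard error), and limma's Benjamini-Hochberg adjusted p was 0.515. The mutated position and that of the probes are not given, so the gene does not check the labels. CMT3 stood at 12.79 and 12.70 in kyp, against 12.61 and 12.59 in wild type, a difference of 0.14 ± 0.09 (limma adjusted p = 0.657). In the cmt3 leaves CMT3 was at 10.94 and 10.97.

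Array medians lay between 9.89 and 9.96. The 2 kyp arrays correlated at Pearson's r of 0.987 across genes, and the 2 wild type arrays at 0.986. A gene differed between the 2 arrays of a genotype by a median of 0.193 in kyp and 0.171 in wild type. By the image names, kyp replicate 1 shared a slide with the wild type arrays, and kyp replicate 2 with those of cmt3. A second part of the image name, a code, is shared by kyp replicate 1 and 1 cmt3 array (A02) and by kyp replicate 2 and 1 wild type array (A04). On both A02 arrays 7 genes lay at least 4-fold below all other arrays and 1 lay at least 4-fold above them, against 0 genes for each of the codes A03 and A04. Wild type replicate 1 alone lay at least 4-fold below all other arrays for 49 genes. Leaf identity was checked on 14 photosynthesis genes, whose wild type means had a median of 15.92 and ran up to 16.0. Their median difference was -0.01. Most of these genes lay near the upper end of the intensity range, where differences can be compressed. The median difference therefore cannot show whether the genotypes were alike in these genes. In bulk leaves, fewer cells of a type and less RNA per cell cannot be told apart.

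In kyp leaves 30 genes rose and 2 fell at an adjusted p under 0.05. That is 0.0988% of the gene models higher and 0.00659% lower. Transposable element genes made up 15 of the 30 that rose: 5 copia, 4 CACTA, 3 gypsy and 3 LINE genes. The other 15 were unknown proteins (12) or pseudogenes (3) by the wording of the files. Unknown proteins are here the models whose description holds the word unknown. That class also holds genes with a known function, such as SDC and DML3. Genes of described function are below those in none of these classes. The rises were large, with a median of 17.0-fold and a range on the log2 scale of 2.06 to 8.64. For 18 of the 30 the wild type mean lay in the lowest 25% of all wild type means, below a log2 intensity of 6.2. The 2 kyp arrays differed from each other by at most 0.725 in any of the 30, and by a median of 0.152.

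**Figure D1:**
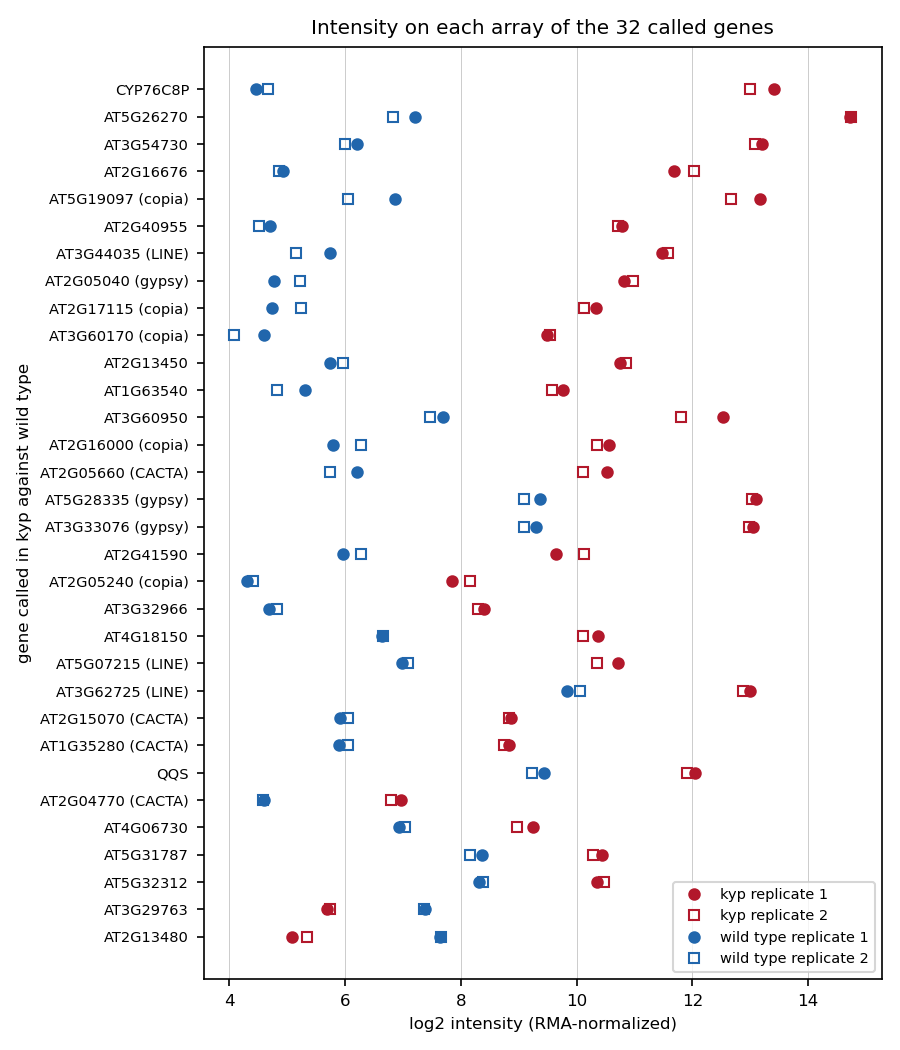
Log2 intensity (horizontal axis) of the 32 genes that passed the test, ordered by their difference, on the 2 kyp arrays (red) and the 2 wild type arrays (blue). Circles are replicate 1 and squares replicate 2. In the upper 30 genes both kyp arrays lie to the right of both wild type arrays, with CYP76C8P widest at 8.64, and in the lowest 2 they lie to the left.

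The largest rise was that of CYP76C8P, a transcribed pseudogene of the cytochrome P450 family (chromosome 3, 22540618 to 22543451). Its intensity was 13.41 and 13.00 in kyp, against 4.47 and 4.67 in wild type. The wild type arrays lay in the lowest 25% of intensities, and both kyp arrays were high. The difference was 8.64 ± 0.19 (limma adjusted p = 0.0038). The gene model 129 bases before it, AT3G60950, also rose. AT3G60950 stood at 12.53 and 11.81 in kyp, against 7.69 and 7.46 in wild type, a rise of 4.60 ± 0.28 (limma adjusted p = 0.0389). Its probes are listed in the files for a second locus, AT3G61030, as well, so the signal cannot be placed at either one.

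AT5G26270, an unknown protein gene on chromosome 5, was at 14.73 and 14.74 in kyp, against 7.21 and 6.83 in wild type. The 2 kyp arrays agreed within 0.02, and the rise was 7.72 ± 0.16 (limma adjusted p = 0.0038). AT3G54730 rose by 7.04 ± 0.18, to 13.21 and 13.08 in kyp, against 6.20 and 6.0 in wild type. AT2G16676 rose by 6.96 ± 0.15, to 11.69 and 12.03 in kyp, against 4.93 and 4.86 in wild type. These 3 genes are unknown proteins by the wording of the files and are annotated as protein-coding in RefSeq. RefSeq gives that annotation to 10 of the 15 genes that rose outside transposable elements. AT2G40955 rose by 6.15 ± 0.11, but shares its probes with the locus AT4G15096.

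Among retrotransposon genes that passed the test, the copia gene AT5G19097 rose most. Its intensity was 13.17 and 12.66 in kyp, against 6.87 and 6.04 in wild type, a rise of 6.46 ± 0.34 (limma adjusted p = 0.0294). The LINE gene AT3G44035 was at 11.47 and 11.58 in kyp, against 5.73 and 5.16 in wild type, a rise of 6.08 ± 0.23. Both kyp arrays lay far above both wild type arrays in each of these genes. The gypsy gene AT2G05040 rose by 5.90 ± 0.20, to 10.82 and 10.97 in kyp, against 4.77 and 5.22 in wild type. The other 4 copia genes, AT2G17115, AT3G60170, AT2G16000 and AT2G05240, rose by 5.24, 5.17, 4.42 and 3.65. The LINE genes AT5G07215 and AT3G62725 rose by 3.5 and 2.99.

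A pair of gypsy genes rose by nearly the same amount, AT5G28335 by 3.83 ± 0.18 and AT3G33076 by 3.82 ± 0.17. AT5G28335 was at 13.10 and 13.03 in kyp, against 9.37 and 9.10 in wild type, and AT3G33076 at 13.05 and 12.98 in kyp, against 9.30 and 9.08 in wild type. The values of the pair are almost equal on every array, and the probes of AT3G33076 are also listed for AT3G33084, so the pair may not be separate measurements. Rises of the 4 CACTA genes were 4.35 ± 0.23 for AT2G05660, 2.86 ± 0.17 for AT2G15070, 2.82 ± 0.13 for AT1G35280 and 2.29 ± 0.12 for AT2G04770. AT2G05660 reached 10.52 and 10.11 in kyp, against 6.21 and 5.74 in wild type.

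QQS, a gene found only in Arabidopsis thaliana and known to act on starch content, was the only gene that rose to carry a gene symbol apart from CYP76C8P. It lies between transposable element genes on chromosome 3 (12351626 to 12352205), and its promoter is known to be kept methylated. QQS was at 12.04 and 11.91 in kyp, against 9.43 and 9.23 in wild type. All 4 arrays gave it a clear signal, and the rise was 2.64 ± 0.13 (limma adjusted p = 0.0211). Of the remaining genes outside transposable elements, AT2G13450, AT1G63540, AT2G41590, AT3G32966 and AT4G18150 rose by 4.95, 4.61, 3.76, 3.60 and 3.59. The smallest rises were those of AT4G06730, AT5G31787 and AT5G32312, by 2.13, 2.1 and 2.06.

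Only 2 genes fell. AT2G13480, a pseudogene on chromosome 2, was at 5.08 and 5.35 in kyp, against 7.64 and 7.65 in wild type, a difference of -2.43 ± 0.15 (limma adjusted p = 0.0383). AT3G29763, an unknown protein gene on chromosome 3, was at 5.70 and 5.74 in kyp, against 7.38 and 7.35 in wild type, a difference of -1.65 ± 0.09 (limma adjusted p = 0.0294). Both were dim in both genotypes, and the kyp arrays lay below the wild type arrays in each.

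The calls rest on all 6 arrays sharing 1 estimate of the spread. In limma's test 0 genes passed in either direction when any 1 of the 6 arrays was left out, wild type, kyp or cmt3, or when the slide was a block, while between 2271 and 3159 genes had an unadjusted p under 0.05. All 32 called genes kept their direction on every such occasion. That was fixed in advance, since in each of them both kyp arrays lay on 1 side of both wild type arrays. The slide was a fixed block here. As a random block it gave 32 higher and 2 lower genes.

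The share of gene models that rose, 0.0988% of all models, differed between chromosomes. Chromosome 2 held 11 of the 30, 0.221% of its gene models, and 9 of these 11 lay in its first 8 Mb. Chromosome 3 held 9 (0.147%), of which 4 lay beyond 22 Mb. Chromosome 5 held 6 (0.0872%), and chromosomes 1 and 4 held 2 each (0.0265% and 0.0427%). The share of all gene models that lies in these stretches was not counted, so the counts within chromosomes cannot show clustering. Within 2 Mb of KYP on chromosome 5, 1 of 1105 gene models rose and the median difference was 0.01, so the region around the mutated gene was close to the median of all genes, 0.00. Whether these differences between chromosomes exceed the error was not tested.

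Gene models next to the called genes were examined in turn, at the nearest model on each side. Of 62 such neighbours that were not called themselves, 7 (11.3%) were at least 2-fold higher in kyp with arrays that did not overlap, against 2.08% of all gene models. Transposable element genes made up 18 of the 62 neighbours and 4 of the 7. Their share on the whole array was 8.82%, and that of genes outside elements 1.49%. The LINE gene AT2G13460 begins 383 bases after AT2G13450. Its intensity was 10.20 and 10.49 in kyp, against 5.21 and 6.13 in wild type, a difference of 4.68 ± 0.34 that did not pass (limma adjusted p = 0.061). The LINE gene AT2G16680, 765 bases after AT2G16676, was at 8.86 and 9.18 in kyp, against 5.03 and 4.24 in wild type. Absence of overlap was a condition for naming both neighbours. The LINE gene AT2G41580, the CACTA gene AT2G15060 and AT3G44040 differed by 3.18, 2.40 and 2.11, and AT2G05030 and AT1G63535 by 1.54 and 1.42.

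A further 4 neighbours (6.45%) were at least 2-fold lower in kyp without overlap, against 2.36% of all gene models and 4.11% of transposable element genes. RLP19, which encodes a receptor-like protein, lies 1306 bases after the CACTA gene AT2G15070. RLP19 was at 10.74 and 10.83 in kyp, against 12.60 and 12.39 in wild type, a difference of -1.71 ± 0.12 (limma adjusted p = 0.061). AT5G19100, 634 bases after the copia gene AT5G19097, was at 7.37 and 7.24 in kyp, against 10.88 and 9.56 in wild type. So at these 2 places the gene beside a risen element was lower on both kyp arrays, though neither difference passed the test. The CACTA gene AT3G30722, beside QQS, differed by -1.27 and AT3G60940 by -1.2.

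Differences in single genes were also large where the arrays of a genotype spread too widely for the test. In all, 134 gene models (0.441%) were at least 4-fold higher in kyp with arrays that did not overlap, and 53 (0.175%) were at least 4-fold lower. The copia gene AT5G27925 was at 14.54 and 13.98 in kyp, against 9.04 and 5.79 in wild type, a difference of 6.84 ± 1.12 (limma adjusted p = 0.258). The wild type arrays of AT5G27925 lay far apart, and the kyp arrays close together. The copia genes AT1G53810 and AT1G34090 differed by 6.12 ± 0.51 and 5.52 ± 0.44 (limma adjusted p = 0.0731 and 0.0707). AT3G28915, a LINE gene, differed by 5.85, AT2G19850 by 4.76 and AT5G15360 by 4.51. The copia gene AT1G70010 differed by 5.52 ± 0.84, at 11.39 and 11.67 in kyp, against 7.0 and 5.02 in wild type (limma adjusted p = 0.229).

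**Figure D2:**
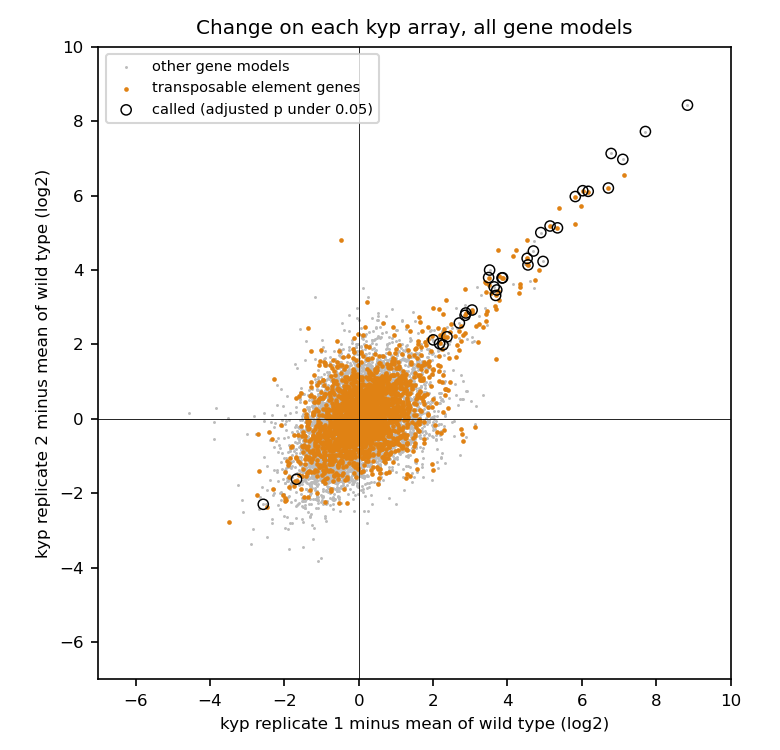
Log2 difference of kyp replicate 1 (horizontal axis) and of kyp replicate 2 (vertical axis) from the mean of the 2 wild type arrays, for all 30361 gene models. Orange points are transposable element genes, grey points the other models, and circles the 32 genes that passed the test. Both axes share the wild type mean. The points far from 0 on both axes lie mostly at the upper right, where 79 of the 134 genes at least 4-fold higher are transposable element genes.

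Transposable element genes were 79 of the 134 models in the 4-fold higher group, though they were 8.10% of the models on the array. By superfamily, 20 of 341 CACTA genes (5.87%), 27 of 483 copia genes (5.59%), 4 of 82 hAT genes (4.88%) and 13 of 299 LINE genes (4.35%) were at least 4-fold higher. The shares were lower for Mutator, 4 of 278 (1.44%), and for gypsy, 11 of 916 (1.2%). Most elements were therefore not in the group: 3.21% of all 2460 element genes were, against 0.197% of the 27901 genes outside elements. Among the latter the share was 0.75% for pseudogenes, 0.331% for unknown proteins and 0.0526% for the 15211 genes with a described function. The wild type mean lay in the lowest 25% for 68.3% of element genes, against 21.2% of genes outside elements. Class and wild type intensity were not separated in these shares. The medians over whole superfamilies were near that of all genes, at 0.13 for gypsy and CACTA, 0.07 for LINE, 0.03 for copia and -0.07 for Mutator. The edge of the group lies at AT2G34655 and AT5G42955, with differences of 2.01 just inside it. AT3G23725 (3.999-fold) and PPME1 (3.96-fold) lay just outside. In 6 of the 134 models wild type replicate 1 lay at least 4-fold below the other 5 arrays, among them GSTF2, CALS1, SHA1 and UBC17. GSTF2, a glutathione transferase gene, was at 15.27 and 15.25 in kyp, against 10.55 and 14.85 in wild type.

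The 4-fold groups were counted again with 1 array left out. Overlap is then easier to avoid, with 1 array set against 2, so larger counts do not show that a single array drives the groups. The higher group held 216 models without wild type replicate 2, 213 without kyp replicate 1, 223 without kyp replicate 2 and 160 without wild type replicate 1. The lower group held 185, 137, 75 and 119 on the same 4 occasions.

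Element genes outside the element-rich regions were more often in the 4-fold higher group than those inside. Windows of 1 Mb in which at least 30% of the gene models were element genes, 16 of 121 windows, held 1519 element genes, of which 23 (1.51%) were at least 4-fold higher. In the other 105 windows 56 of 941 (5.95%) were. The same order held in each of the 6 superfamilies with any such gene. For copia the counts were 2 of 184 in element-rich windows and 25 of 299 elsewhere, and for CACTA 9 of 245 and 11 of 96. The order was kept with a window threshold of 20% (1.73% and 7.65%) and of 40% (1.35% and 4.75%), alternatives chosen after the data were seen. Median wild type intensity of element genes was 5.59 in element-rich windows and 5.72 elsewhere. Genes outside transposable elements ran the other way, with 16 of 1705 (0.938%) in element-rich windows and 39 of 26035 (0.150%) elsewhere. Their median wild type intensity was 6.09 in element-rich windows and 10.72 elsewhere, so place and intensity cannot be told apart for them. None of these differences was tested.

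**Figure D3:**
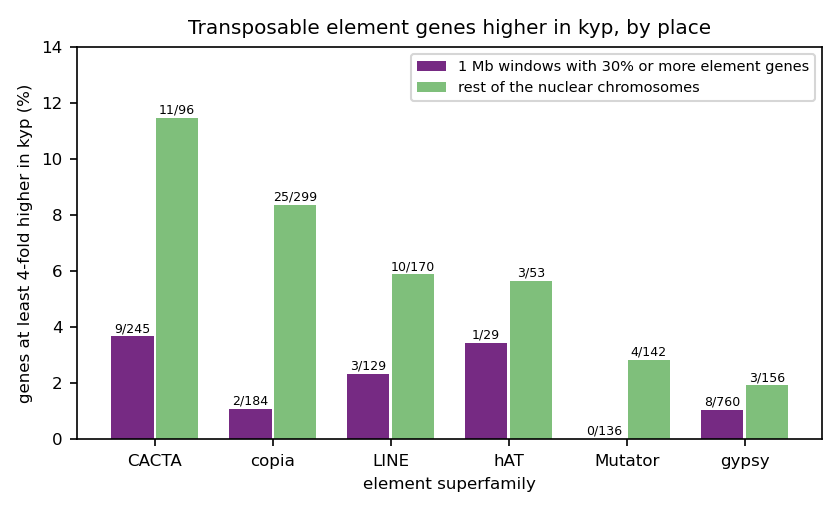
Share of transposable element genes (vertical axis, %) at least 4-fold higher in kyp without overlap, by superfamily, in 1 Mb windows with at least 30% element genes (purple) and in the rest of the nuclear chromosomes (green). The numbers above the bars are genes in the group over genes measured. In every superfamily shown the share is lower in the element-rich windows, from 9 of 245 against 11 of 96 for CACTA to 8 of 760 against 3 of 156 for gypsy.

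Genes outside transposable elements in the 4-fold higher group lay near an element more often than such genes in general. Of these 55 genes, 14 (25.5%) had an element gene within 2 kb, against 6.05% of the 27740 nuclear genes outside elements. In the 4-fold lower group the count was 5 of 44 (11.4%). Of the 134 models, 14 lay next to another of the 134. An example with a described function, named after its values were seen, is AT5G28235, at 8.87 and 8.46 in kyp, against 5.27 and 5.69 in wild type (limma adjusted p = 0.0597).

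The 53 models in the 4-fold lower group had another make-up, with 23 genes of described function, 17 unknown proteins, 4 pseudogenes and 9 element genes. ATCOPIA4, a copia gene on chromosome 4, had the lowest difference of the 53. It was at 11.86 and 12.59 in kyp, against 15.31 and 15.41 in wild type, so it was bright in both genotypes. The difference was -3.14 ± 0.28 and did not pass (limma adjusted p = 0.0815). RAP2.6, an ethylene response factor gene, was at 6.67 and 5.96 in kyp, against 9.83 and 8.43 in wild type, a difference of -2.81 ± 0.62. AT5G44300, AT1G08440, AT5G41590, AT1G48580 and AT3G46700 differed by -3.13, -2.80, -2.70, -2.66 and -2.57. All were chosen as genes with kyp arrays below the wild type arrays that did not pass the test.

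The following members of the lower group were named after their values were seen. HFR1, a transcription factor gene of light and shade signalling, was at 10.27 and 10.37 in kyp, against 12.16 and 12.54 in wild type. CKX5, a cytokinin oxidase gene, was at 8.86 and 9.05 in kyp, against 11.67 and 11.04 in wild type. YUC9, an auxin synthesis gene, was at 10.12 and 9.43 in kyp, against 12.25 and 11.87 in wild type. In these 3 genes the 2 kyp arrays were at least 1 unit below the lower wild type array. RGL3, which encodes a DELLA repressor of gibberellin responses, differed by -2.32. DAD1 and CYP94B1, which make and oxidise jasmonate, differed by -2.46 and -2.48, with kyp replicate 2 well below kyp replicate 1 in both.

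Genes that DNA methylation is known to silence did not move as a block. Of 12 measured, 5 had both kyp arrays above both wild type arrays and 5 had both below, with a median of -0.34. Over all gene models 23.0% were above in this sense and 22.0% below. At least 4-fold without overlap, 2 of the 12 (16.7%) were higher and 1 (8.33%) lower, against 0.441% and 0.175% of all models. An unadjusted p under 0.05 in limma was found for 7, against 10.2% of all models. Wild type means in the list ran from 5.01 to 15.36, with a median of 10.15, so some members were bright in wild type. The lowest difference was that of ATCOPIA4, the brightest. QQS was the only one of the 12 that passed. AtMu1, a Mutator element gene, was at 10.34 and 10.05 in kyp, against 6.40 and 6.80 in wild type, a difference of 3.60 ± 0.26 (limma adjusted p = 0.061). SDC, an F-box gene silenced through repeats in its promoter, was at 8.61 and 8.43 in kyp, against 8.0 and 7.42 in wild type, a difference of 0.81 ± 0.23 (limma adjusted p = 0.408). The groups did not overlap in either, and the difference was far smaller in SDC. FWA, a homeodomain gene silenced by a methylated promoter, was dim on all 4 arrays, at 5.12 and 3.95 in kyp, against 5.57 and 5.70 in wild type.

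The genes of the silencing machinery stayed near their wild type levels. The median difference was 0.03 over 16 members of the H3K9 methyltransferase family and the regulators of IBM1, 0.09 over 13 DNA methyltransferases and maintenance factors, 0.05 over 18 genes of RNA-directed DNA methylation and 0.09 over 11 other silencing factors. None passed the test. The one that differed most in the first group was IBM1, the demethylase that removes the same histone mark from gene bodies. IBM1 was at 11.72 and 11.73 in kyp, against 12.42 and 12.26 in wild type, a difference of -0.61 ± 0.12 (limma adjusted p = 0.333). Both kyp arrays lay below both wild type arrays. SUVH5 and SUVH6, the enzymes that share the work of KYP, were within 0.12 of wild type on average, and SUVH1 differed by 0.34 ± 0.14. MET1, which keeps CG methylation, differed by 0.18 ± 0.09, and AGO4, which binds small RNAs of the silencing pathway, by 0.26 ± 0.09 (limma adjusted p = 0.575 and 0.476). In RNA-directed DNA methylation 7 of 18 genes lay above in the non-overlapping sense and 1 below. Among other silencing factors 6 of 11 lay above and 1 below, against 23.0% and 22.0% of all models.

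Heat shock genes had the lowest median of the 34 lists. The median was -1.52 over 13 genes, -1.11 on kyp replicate 1 and -1.93 on kyp replicate 2. In 12 of 13 both kyp arrays lay below both wild type arrays, against 22.0% of all models, and 7 had an unadjusted p under 0.05, against 10.2% of all models, yet none passed the adjusted test. ROF2, a peptidyl-prolyl isomerase induced by heat, was at 12.19 and 11.78 in kyp, against 14.19 and 13.83 in wild type, a difference of -2.02 ± 0.31 (limma adjusted p = 0.239). HSP90.1, an inducible chaperone, was at 13.09 and 12.44 in kyp, against 15.02 and 14.42 in wild type. HSFA2, a heat shock transcription factor, was at 14.05 and 13.50 in kyp, against 14.98 and 14.76 in wild type. In these 3 genes kyp replicate 2 was the lower of the kyp arrays, and wild type replicate 1 the higher of the wild type arrays. The small heat shock protein genes HSP17.6II, HSP17.6C and HSP23.6 differed by -2.30, -2.14 and -2.43. HSP18.2 and HSP21 differed by -0.25 each, HSP21 by 0.0779 without wild type replicate 1. Between the 2 wild type arrays the median of the list differed by 0.54 (replicate 1 minus replicate 2), and in cmt3 the list lay at -3.34. On the slide that holds kyp replicate 1 and both wild type arrays the median was -1.11.

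Auxin response genes had the next lowest median, at -0.61. Of 12, 10 were below without overlap and 1 above, against 22.0% and 23.0% of all models. The median was -0.56 on kyp replicate 1 and -0.66 on kyp replicate 2. None passed the adjusted test, and 7 had an unadjusted p under 0.05, against 10.2% of all models. IAA2, an auxin-induced repressor, was at 13.93 and 13.81 in kyp, against 14.52 and 14.52 in wild type, a difference of -0.65 ± 0.09 (limma adjusted p = 0.221). GH3.3, which conjugates auxin to amino acids, was at 9.84 and 9.61 in kyp, against 11.65 and 11.08 in wild type, a difference of -1.64 ± 0.24. YUC2, an auxin synthesis gene, was at 8.94 and 8.50 in kyp, against 10.27 and 10.16 in wild type. The groups did not overlap in these 3 genes. IAA5, IAA29 and SAUR-AC1 differed by -1.97, -1.13 and -1.02.

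**Figure D4:**
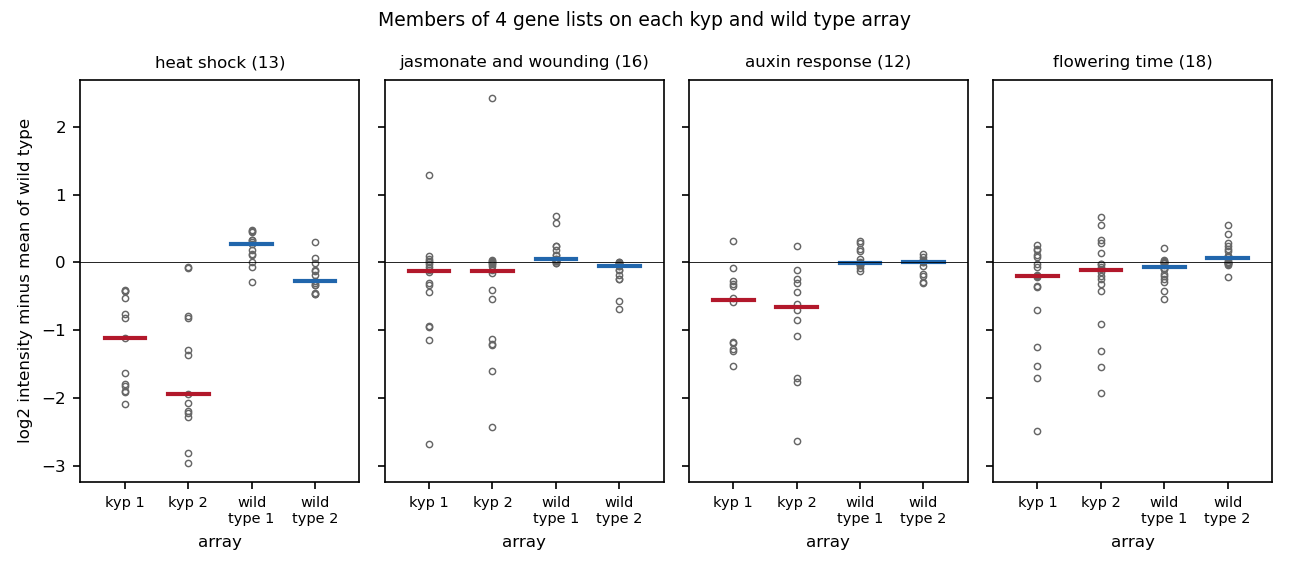
Log2 intensity minus the mean of the 2 wild type arrays (vertical axis) for each member of 4 gene lists, on the 2 kyp arrays and the 2 wild type arrays. Each open circle is a gene and each bar the median of the list on that array. The heat shock medians were -1.11 and -1.93 on the kyp arrays and the auxin response medians -0.56 and -0.66, while in the jasmonate and flowering time lists a few genes lay far below the rest.

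In the jasmonate, cold and flowering lists no gene passed the test. VSP1, a storage protein gene induced by jasmonate, was at 7.98 and 8.24 in kyp, against 10.90 and 10.42 in wild type, a difference of -2.55 ± 0.23 (limma adjusted p = 0.0815). LOX2, which opens jasmonate synthesis, was at 15.53 and 15.83 in kyp, against 15.91 and 15.81 in wild type, so the groups overlapped. The jasmonate list as a whole had a median of -0.15. It had 7 of 16 genes below and 2 above, against 22.0% and 23.0% of all models. Wild type values of LOX2, LOX3 and JAZ1 were near the upper end of the intensity range, where differences can be compressed. In the cold and drought list 8 of 14 were below and 3 above, with a median of -0.59. COR15A, which protects chloroplasts in the cold, was at 13.98 and 13.45 in kyp, against 14.66 and 14.55 in wild type. KIN1 was at 7.92 and 7.21 in kyp, against 9.52 and 9.31 in wild type. The 3 above were CBF1, CBF2 and CBF3, the transcription factors that induce the COR genes, with differences of 0.61, 0.57 and 0.33.

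Among 18 flowering time genes 10 were below and 3 above, against 22.0% and 23.0% of all models, with a median of -0.19. MAF5, a floral repressor related to FLC, was at 6.57 and 7.12 in kyp, against 9.0 and 9.09 in wild type, a difference of -2.20 ± 0.23 (limma adjusted p = 0.111). Its tandem neighbour MAF4 was at 6.95 and 7.16 in kyp, against 8.27 and 8.66 in wild type. Both genes were clearly lower on the kyp arrays than on the wild type arrays, with no overlap. FLC, the main floral repressor, was at 6.30 and 7.09 in kyp, against 7.45 and 8.54 in wild type, a difference of -1.30 ± 0.81. MAF2 and MAF3 differed by -0.11 and -0.31. FUL, a floral promoter, was at 7.43 and 7.13 in kyp, against 8.39 and 8.96 in wild type, while FT, the mobile flowering signal, was at 7.17 and 7.51 in kyp, against 7.12 and 7.96 in wild type. SOC1 differed by -0.18 ± 0.14. None of the 18 passed the test.

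Cell division genes had a median slightly above 0. Of 16, 11 were above without overlap and 0 below, against 23.0% and 22.0% of all models, with a median of 0.15. CYCB1;1, a mitotic cyclin, was at 10.29 and 10.29 in kyp, against 9.82 and 9.79 in wild type, a difference of 0.48 ± 0.09 (limma adjusted p = 0.296). KNOLLE, which acts in building the cell plate, was at 12.71 and 12.79 in kyp, against 12.38 and 12.52 in wild type. Markers of meristems did not share the direction, with 2 of 9 above and 3 below and a median of -0.45. Their summed intensities were 13388 and 13938 in kyp, against 12346 and 13136 in wild type. That sum mostly follows the brightest marker, with a wild type mean of 13.56, while the median of the wild type means was 6.08.

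In the defence list the 2 kyp arrays differed from each other. Its median was -0.03 on kyp replicate 1 and 0.58 on kyp replicate 2. The median difference from wild type was 0.22, with 13 of 16 genes higher in kyp and 3 lower. Without overlap 3 were above and 1 below, against 23.0% and 22.0% of all models. Between the 2 wild type arrays the median of the list differed by 0.26 (replicate 1 minus replicate 2). With this spread a difference between genotypes was not resolved. PR1, a marker of salicylic acid responses, was at 6.89 and 9.05 in kyp, against 7.35 and 5.41 in wild type. PR2 was at 10.26 and 12.35 in kyp, against 11.05 and 9.27 in wild type. In both genes kyp replicate 2 was highest and wild type replicate 2 lowest of the 4 arrays, so the groups overlapped. WRKY70 was the one with the smallest p, at 14.99 and 15.32 in kyp, against 14.41 and 14.42 in wild type (difference 0.74 ± 0.16, limma adjusted p = 0.352).

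Markers of other cell types and organs did not share a direction. Both kyp arrays lay above both wild type arrays in 4 of 11 floral organ, 2 of 12 root, 3 of 11 seed storage, 1 of 8 pollen, 1 of 10 guard cell, 2 of 10 vascular and 1 of 9 trichome markers. They lay below in 1, 2, 1, 3, 4, 3 and 0 of the same lists. Of all gene models 23.0% lay above and 22.0% below, and in lists this short such counts cannot be told from those shares. The summed intensities of the guard cell markers were 37971 and 35415 in kyp, against 46803 and 42039 in wild type, and those of the root markers 5805 and 7249 in kyp, against 5692 and 5643 in wild type. Such sums mostly follow the brightest markers. Guard cell wild type means had a median of 10.37 and a maximum of 14.45, and root ones of 6.04 and 11.83. KAT1, a potassium channel gene and the brightest guard cell marker, differed by -0.53 ± 0.13 (limma adjusted p = 0.378). It is therefore not separate from the guard cell sum. Since the files give no detection values, no marker was called absent, and the part of cell composition in the differences above was not tested.

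**Figure D5:**
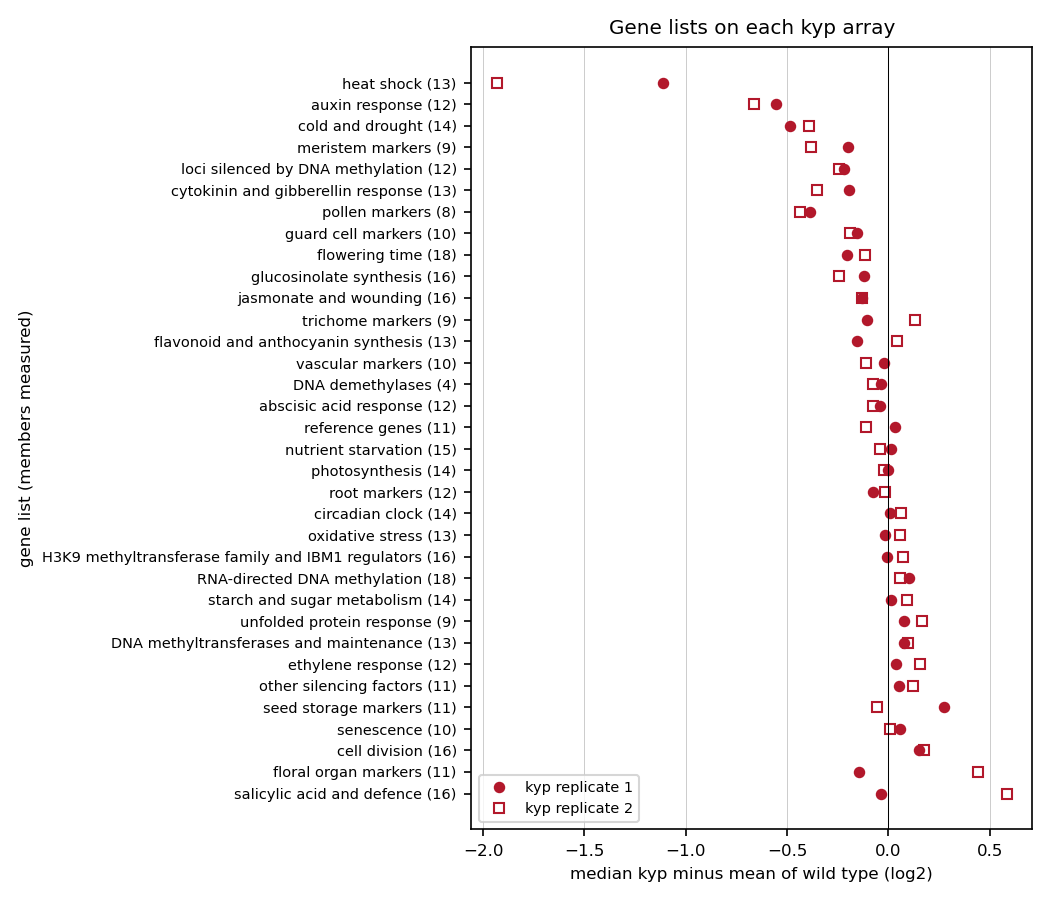
Median log2 difference from the mean of the 2 wild type arrays (horizontal axis) over the measured members of each of 34 gene lists (vertical axis, number of members in parentheses), on kyp replicate 1 (circles) and kyp replicate 2 (squares). Heat shock lies lowest on both arrays, at -1.11 and -1.93, followed by auxin response at -0.56 and -0.66. Salicylic acid and defence has its circles and squares wide apart, at -0.03 and 0.58.

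Of the lists not yet described, glucosinolate synthesis had a median of -0.19 with 7 of 16 below and 3 above, and MYB76, a regulator of that pathway, differed by -0.92 ± 0.13 (limma adjusted p = 0.208). Cytokinin and gibberellin response had a median of -0.27 with 9 of 13 below and 2 above, with ARR15, a cytokinin-induced response regulator, at 10.21 and 9.67 in kyp, against 11.10 and 10.72 in wild type. Flavonoid and anthocyanin synthesis had a median of -0.08, although CHS, its first enzyme, differed by 0.60 ± 0.12 (limma adjusted p = 0.341). The medians lay between -0.05 and 0.14 for the circadian clock, senescence, ethylene response, abscisic acid response, oxidative stress, nutrient starvation, the unfolded protein response, and starch and sugar metabolism. DNA demethylases had a median of -0.06, and the 11 genes commonly used as references one of -0.03. No gene of these lists passed the test, and over all models 22.0% were below and 23.0% above. Organelle transcripts were slightly lower: 42 of 67 chloroplast models (62.7%) and 45 of 94 mitochondrial models (47.9%) were below without overlap, against 22.0% of all models. Their medians were -0.11 and -0.20, and the mitochondrial models differed by 0.26 between the 2 wild type arrays (replicate 1 minus replicate 2).

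The kyp leaves were set against cmt3 leaves by a contrast of the same fit, in which wild type cancels. Only 3 genes were higher in kyp than in cmt3 (0.00988%) and 6 lower (0.0198%). Both comparisons of a mutant with wild type share the wild type arrays, so their values are given side by side for the genes that rose in kyp. CYP76C8P was at 13.41 and 13.00 in kyp and 11.78 and 12.03 in cmt3, against 4.47 and 4.67 in wild type. QQS was at 12.04 and 11.91 in kyp and 11.56 and 11.69 in cmt3, against 9.43 and 9.23 in wild type. Neither gene differed between kyp and cmt3 in the test (limma adjusted p = 0.285 and 0.39). The intervals are wide with 2 arrays each, so this does not show that the levels are alike. Of the 30 genes that rose in kyp, 29 were also at least 4-fold higher in cmt3 than in wild type. In limma's test of cmt3 against wild type, 29 of the 30 passed. The rises were thus largely shared by the 2 mutants, measured against the same wild type arrays. Of the 30 genes, 10 had a higher mean in kyp than in cmt3.

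Of the genes that rose in kyp, 2 were lower there than in cmt3. AT3G32966, a pseudogene on chromosome 3, was at 8.40 and 8.30 in kyp and 11.98 and 12.13 in cmt3, against 4.68 and 4.83 in wild type. The difference between kyp and cmt3 was -3.71 (limma adjusted p = 0.03). AT4G18150, an unknown protein gene on chromosome 4, was at 10.36 and 10.12 in kyp and 12.90 and 13.02 in cmt3, against 6.64 and 6.66 in wild type, a difference from cmt3 of -2.72 (limma adjusted p = 0.0421). On every array the order was cmt3 above kyp above wild type. In the LINE gene AT3G44035 kyp stood above cmt3, at 11.47 and 11.58 in kyp and 7.43 and 7.66 in cmt3, against 5.73 and 5.16 in wild type, but its difference of 3.98 from cmt3 did not pass (limma adjusted p = 0.0767). The copia gene AT1G70010 was at 4.80 and 6.24 in cmt3, near its wild type values, and differed from cmt3 by 6.01 (limma adjusted p = 0.27). ATCOPIA4 was at 9.83 and 9.54 in cmt3, below its kyp values, with a difference of 2.54 (limma adjusted p = 0.211).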

How the data were processed

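RNA of 2 kyp, 2 cmt3 and 2 wild type leaf samples was measured on 6 NimbleGen arrays. The cDNA was primed with oligo(dT), per the labels. The deposited intensities are on a linear scale after RMA by the authors, per the labels, and cover 30361 gene models with 1 to 3 probes each. The RMA settings are not stated in those sources. Log2 intensities were fitted in limma 3.58.1 under R 4.3.3 at eBayes defaults, with 1 mean per genotype over all 6 arrays, which left 3 residual and 1.41 prior degrees of freedom. P-values were 2-sided and adjusted by Benjamini-Hochberg over all models, with calls under 0.05 and no filter. Errors are limma's standard errors. No depth exists for arrays, and their number limits the precision. The files hold no detection values, so a fold from a dim gene may understate the change.

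Coordinates and descriptions are those of the files (gene models marked Release 6). Symbols and gene types came from RefSeq TAIR10.1, which matched 29976 loci. Transposable element genes are those whose description names one. The named genes were KYP, CMT3, all called genes, the 8 largest uncalled rises and falls without overlap, neighbours of called genes at least 2-fold changed, genes called against cmt3, and for each of 34 lists (425 of 427 members measured) the called members or the one with the smallest p, with up to 3 more for silencing lists. Other genes were named after their values were seen. Members and lists were chosen with earlier results of these data known. Replicate numbers do not pair the samples. The fit was tested on simulated data.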

Additional observations from a re-analysis of the deposited data

Results flagged for a closer look

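The difference between kyp and cmt3, tested as a contrast of the same limma fit, passed an adjusted p of 0.05 for 9 genes. The 6 lower in kyp were AT1G45030 (-5.06), AT1G45035 (-4.58), AT2G15510 (-4.15), AT3G32966 (-3.71), AT4G18150 (-2.72) and AT3G43575 (-2.13), as log2 of kyp minus cmt3. AT1G45030, AT2G15510 and AT3G43575 are LINE genes, and AT1G45035 is a pseudogene that starts directly after AT1G45030. AT1G45030 was at 7.83 and 7.48 in kyp and 12.54 and 12.88 in cmt3, against 6.67 and 6.40 in wild type. Both kyp arrays of it lay above both wild type arrays, by a mean of 1.12 (limma adjusted p = 0.303). AT2G15510 was at 6.49 and 6.54 in kyp and 10.53 and 10.79 in cmt3, against 4.95 and 4.71 in wild type.

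The 3 genes higher in kyp were AT1G73490 (6.36), RLP13 (3.32) and AT5G34800 (2.82). AT1G73490 was at 13.87 and 13.82 in kyp and 7.83 and 7.15 in cmt3, against 13.75 and 13.78 in wild type. RLP13, which encodes a receptor-like protein, was at 11.33 and 11.38 in kyp and 7.94 and 8.13 in cmt3, against 11.42 and 11.30 in wild type. AT5G34800, a pseudogene, was at 9.17 and 8.96 in kyp and 6.26 and 6.23 in cmt3, against 8.89 and 8.87 in wild type. In these 3 genes the kyp and wild type arrays lay close together and both cmt3 arrays far below. In limma's test 0 of the 9 calls passed with the slide as a fixed block, with 1989 genes at an unadjusted p under 0.05. As a random block the slide left 3 genes higher and 6 lower in kyp than in cmt3. How the calls depend on single arrays is given below.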

How the results depend on the processing

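With an adjusted p under 0.05, 30 genes were higher and 2 lower in kyp than in wild type, and 3 higher and 6 lower in kyp than in cmt3. All 4 counts were 0 when any 1 array was left out (0 to 0), with the slide as a fixed block, with the replicate number as a block and with the image code as a block. The first 2 were also 0 within slide 1 and with only the 4 arrays, alone, with a replicate block or with a crossed replicate block. These settings leave fewer arrays or fewer residual degrees of freedom, and 2260 to 3159 genes still had an unadjusted p under 0.05 in kyp against wild type. Where all arrays of kyp and wild type were kept, the 32 genes had limma adjusted p-values of 0.0569 to 0.578 there. All 32 kept their direction in each of these settings. Except with the image code block that was fixed in advance, since their kyp and wild type arrays do not overlap. With an intensity trend the counts were 72, 13, 7 and 17, and without the dimmest 25% of models 58, 5, 6 and 11; the cause was not tested. A random slide block, quantile normalization, median centring, robust moderation, the series table and leaving out the region of KYP gave 28 to 32 higher and 2 lower genes. Replicate numbers did not pair the samples (correlation of same-numbered deviations -0.123 for wild type and kyp, 0.004 for wild type and cmt3, -0.039 for kyp and cmt3). The 134 models at least 4-fold higher became 223 with the slide block or within slide 1, 207 with the image code block and 134 to 223 with 1 array left out, and the 53 at least 4-fold lower became 91 with the image code block and 53 to 185 with 1 array left out. Overlap is easier to avoid with 1 array of kyp or wild type left out, so those counts follow a looser rule. Of the 162 named genes whose log2 difference was recomputed under the other settings, 9 changed sign, and none of the 9 had passed the test. With 1 array left out, the range was -0.0606 to 0.0555 for RLP13, -0.286 to 0.214 for DML3, -0.245 to 0.0023 for TUB2, -0.0367 to 0.0715 for JAZ1, -0.619 to 0.223 for FT, -0.103 to 0.101 for SUVH5 and -0.576 to 0.0779 for HSP21. With the slide block or within slide 1, DML3 came to 0.0245 and TUB2 to 0.0023. With the image code block DML3 came to 0.0717, BRU1 to -0.00401, LOX3 to 0.947 and FT to 0.223. Centred arrays gave 0.00167 for RLP13 and 0.0036 for SUVH5, which was also at 0.00597 with the random slide block and 0.000217 after quantile normalization. The image code block and the 4-array blocks were chosen after seeing the data.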
